A study of Homo sapiens with 4 samples.

Results

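The genes of the core-binding factor system were followed through H3K27Ac occupancy in MOLM13 cells, a human acute myeloid leukemia (AML) line with an MLL1 rearrangement (MLL1-r). They were chosen by name as RUNX1, RUNX2, RUNX3, CBFB, RUNX1T1, CBFA2T2 and CBFA2T3, which are 7 of the 20037 protein-coding genes considered. One library was made from control cells, whose label gives no treatment although the treatment text names a DMSO arm, and 1 library from cells exposed to 500 nM of the menin inhibitor (MI) SNDX-50469 for 16 h. Both were made by ChIPmentation, in which a transposase adds the sequencing adapters to immunoprecipitated chromatin, and 2 input libraries were not analysed here. MOLM13 is an established line, so that both libraries represent one leukemia. H3K27Ac is an acetyl mark of active promoters and enhancers, and the measurements are the positions of broad peaks of this mark in each library.

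RUNX proteins are the DNA-binding subunits of core-binding factor. They recognise their sites through the Runt domain, and CBFB, which does not contact DNA itself, binds to that domain and strengthens its hold. RUNX1 is needed for definitive blood formation, RUNX2 for bone and RUNX3 in lymphoid and neuronal lineages, and each RUNX gene is read from a distal and a proximal promoter. RUNX1T1 (ETO), CBFA2T2 and CBFA2T3 encode the related corepressors of the ETO family, which carry histone deacetylases to DNA-bound factors. Chromosomal fusions of RUNX1, CBFB, RUNX1T1 or CBFA2T3 occur in AML.

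With 1 library per condition the differences below have no replicate check, and no test was run. The control list held 245875 peaks over 224 Mb and the SNDX-50469 list 54061 peaks over 29.4 Mb, so that the control list was the longer in nearly every region. Of the control length, 9.71% was also covered after treatment, which is called the kept share below. The control list also reached further down. Its weakest peak had a −log10 p of 2.68, against 3.93 in the SNDX-50469 list, and only 45451 of its peaks met the latter value, called the common cutoff. Read depth was not given by these lists. As a check on the line, all 8 myeloid markers examined were covered in the control, over 7.77 to 95.1 kb. Of the markers of other cell types reported here, 6 (EPCAM, NEUROD1, ALB, INS, HBB and MYOD1) had 0 bp in the control, while the lymphoid markers MS4A1, CD3E and CD3D had 7681 to 9490 bp.

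Following SNDX-50469 treatment, H3K27Ac covered length was lower at 6 of the 7 genes and higher at RUNX1T1. Each window ran from 5 kb before a gene to 5 kb beyond it, in hg38 coordinates. Among the 15634 protein-coding genes that had any control peak in such a window, 98.1% had a lower covered length after treatment and 1.84% a higher one, so that a fall by itself was the rule. A fall of at least 10-fold, which 59.0% of these genes showed, was seen at 2 of the 7 (RUNX3 and CBFA2T2). The loss of every kept base, seen at 44.8% of genes, occurred at 1 of the 7 (CBFA2T2). The median kept share was 13.8% for the 7 genes against 2.37% for all 15634. Among the 2104 genes with at least 20 kb covered in the control, the median was 6.94%, and 58.2% fell at least 10-fold. Summed over the 7 genes, covered length went from 412829 bp to 58299 bp, with 12.6% kept, beside 11.6% for all genes summed in the same way. This order depended on the cutoff, since at the common cutoff the summed shares were 17.0% and 18.2%.

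**Figure D1:**
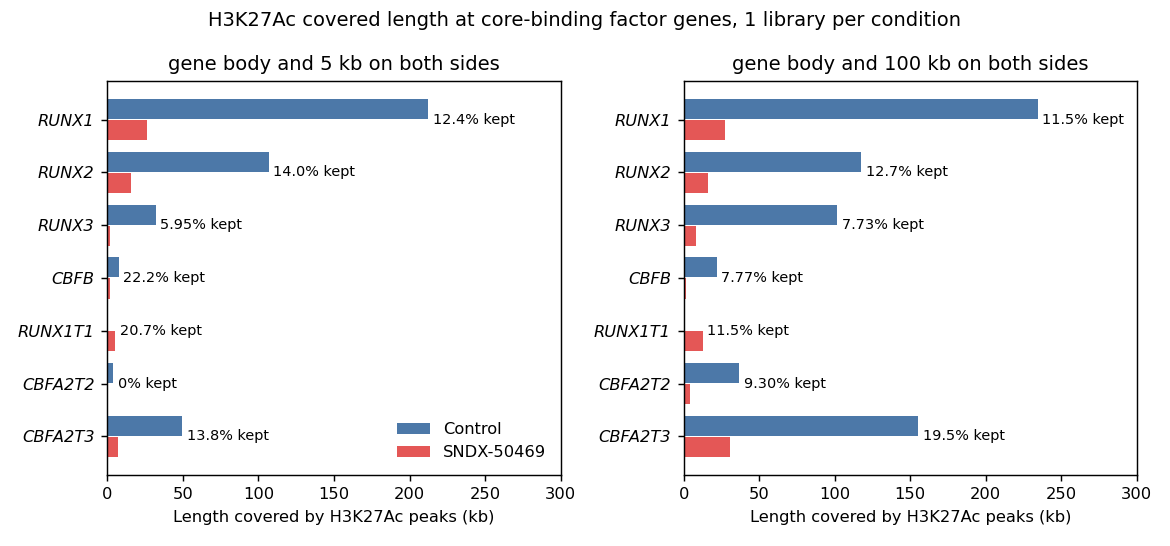
Length covered by H3K27Ac peaks (kb) at each gene in control (blue) and SNDX-50469 (red) cells, over each gene extended on both sides by 5 kb (left) or 100 kb (right), with the percent of the control length that was kept. Bars are single libraries with no error. RUNX1 held the longest coverage in both lists in the left panel, and the order of the conditions was turned around at RUNX1T1.

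RUNX1 (chr21:34787801-35049302, minus strand) had 75 control peaks over 212304 bp, or 78.2% of its window. After treatment 16 peaks covered 26521 bp, or 9.77% of the window, an 8.01-fold lower length. In spite of this fall, RUNX1 ranked 16 of 15634 genes by control length and 60 by treated length. All 16 treated peaks overlapped control peaks, and 236 bp of them lay outside. Of all treated peaks, 43.0% overlapped no control peak, but control peaks here covered 78.2% of the window. In terms of peaks, 7 of the 75 control peaks were touched by a treated peak (9.33%, 95% Wilson interval 4.59 to 18%, counting error only). Over the whole control list, 28.4% of the peaks that met the common cutoff were touched, and 3.66% of the others. Split in this way, RUNX1 had 7 of 23 and 0 of 52 touched, and RUNX2 6 of 13 and 1 of 58. RUNX3 had 1 of 8 and 1 of 17, and CBFA2T3 1 of 8 and 2 of 32. The whole-list shares also stand beside the touched counts of the other genes below. The gene held 7.71% of the covered length of chromosome 21 in the control and 13.9% after treatment. The kept share of RUNX1 was 12.4%, against 5.80% for the rest of that chromosome.

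The strongest control peak of RUNX1, by its fold over the background of its own library, spanned 37615 bp over the proximal promoter (chr21:34880251-34917865, fold 7.89, rank 1149 of its list). Of it, 16763 bp were kept, in 5 treated peaks. The strongest of these lay upstream of the proximal start, at 136 to 144 kb along the gene from the distal start (chr21:34905232-34912904, 7673 bp, fold 5.54, rank 990). Another covered the proximal start itself (chr21:34883178-34891383, 8206 bp, fold 5.41, rank 1119). Thus the highest-ranked H3K27Ac in both lists lay in one region around the proximal promoter.

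Downstream of the distal start, the control had a peak of 35493 bp (chr21:35004462-35039954, fold 4.85). Within it a treated peak of 4255 bp remained at 19.4 to 23.6 kb from that start (chr21:35025696-35029950, fold 4.50, rank 3772). The first intron after the distal start is known to hold a blood stem cell enhancer of RUNX1, whose position was not compared here. At the distal start the control list showed 2 flanking peaks (chr21:35040896-35049195 and chr21:35049518-35055526) with a gap over the start position 35049302. The treated list had 1 peak of 1623 bp over that position (chr21:35047804-35049426, fold 3.96, rank 12330). Of the 56.2 kb covered beyond the proximal promoter in the control, 3.45% was kept, the least of any stretch of the gene.

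RUNX2 (chr6:45328330-45551082, plus strand) is the bone master regulator, and its control coverage in these leukemia cells ranked 116 of 15634. It had 71 control peaks over 106892 bp, 45.9% of the window, and 19 treated peaks over 15865 bp, a 6.74-fold lower length. The kept share was 14%, against 10.4% for the rest of chromosome 6, and 7 of 71 control peaks were touched (9.86%, Wilson interval 4.86 to 19.0%). Of the 19 treated peaks, 3 overlapped no control peak, beside 43.0% of all treated peaks and 49.2% of those on chromosome 6.

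Most of the RUNX2 signal lay at and beyond the proximal promoter. The strongest control peak spanned 37084 bp (chr6:45417658-45454741, fold 7.98, rank 1077), and 10324 bp of it were kept in 7 treated peaks. The strongest treated peak began 0.347 kb after the proximal start (chr6:45422622-45424056, 1435 bp, fold 4.54, rank 3482), and the longest, of 5924 bp, lay 11.3 to 17.2 kb after it (chr6:45433597-45439520, fold 4.30). Between the promoters, a control peak of 3603 bp (chr6:45375761-45379363, fold 6.17) and the treated peak within it (chr6:45377034-45378740, 1707 bp, fold 4.23) reached over the 5′ end of SUPT3H. This neighbour overlaps RUNX2 on the opposite strand, and the peaks there cannot be assigned to one gene.

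RUNX3 (chr1:24899511-24965138, minus strand) kept the least of the RUNX genes. It had 25 control peaks over 32070 bp and 2 treated peaks over 2031 bp, a 15.8-fold lower length. Its kept share was 5.95%, against 8.19% for the rest of chromosome 1, and 2 of 25 control peaks were touched (8.0%, Wilson interval 2.22 to 25.0%). Both treated peaks stood at promoters. One lay just upstream of the distal start, within a control peak of 19064 bp (chr1:24965168-24966276, 1109 bp, fold 4.13, rank 8128). The other covered the proximal start (chr1:24929828-24930749, 922 bp, fold 3.51, rank 37475). Between the promoters 11.9 kb, and beyond the proximal promoter 6.04 kb, were covered in the control and 0 kb after treatment.

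**Figure D2:**
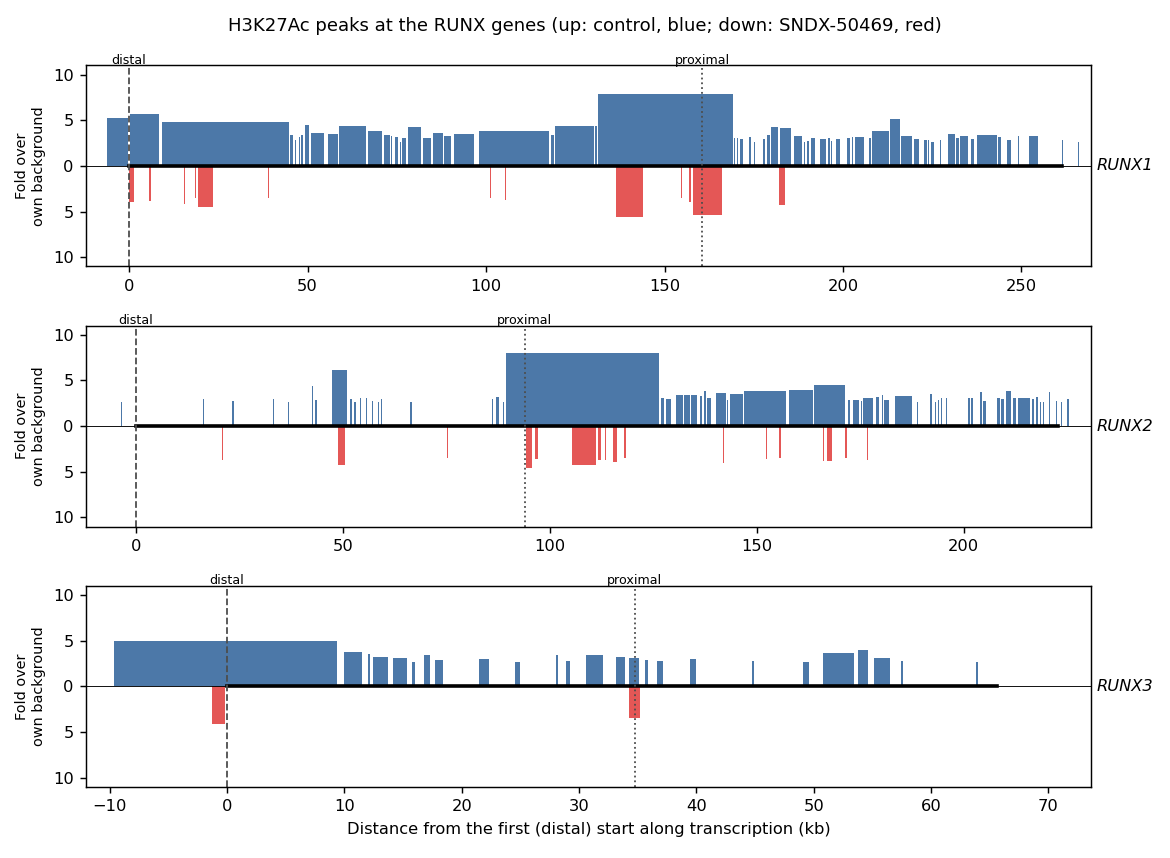
H3K27Ac peaks over RUNX1, RUNX2 and RUNX3 by distance from the distal start along transcription (kb), with control peaks drawn upward (blue) and SNDX-50469 peaks downward (red). Height is the fold of the peak over the background of its own library, which is not scaled between libraries, the black line is the gene, and peaks under 0.15 kb are drawn at that width. At RUNX1 the tallest treated peaks lie at the proximal start and upstream of it, and a further group lies around the distal start. At RUNX2 most lie beyond the proximal start, and at RUNX3 there is 1 at each promoter.

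The promoters were then compared apart, in 5 kb on both sides of each start. The starts came from RefSeq (GRCh38.p14), as promoter entries or, for the distal RUNX1 start, as the outermost end of the gene. At RUNX1 the proximal promoter went from 10000 bp covered to 8110 bp, with 81.1% kept, and the distal promoter from 9678 bp to 1732 bp, with 15.5% kept. At RUNX2 the proximal promoter went from 9617 bp to 1988 bp, with 20.7% kept, while the distal promoter had 306 bp in the control and 0 bp after treatment. At RUNX3 the distal promoter went from 10000 bp to 1109 bp, with 11.1% kept, and the proximal promoter from 4034 bp to 922 bp, with 19.8% kept. At RUNX1 the proximal promoter thus kept the larger share. At RUNX2 the distal figure rests on 306 bp in 1 weak control peak. At the common cutoff no control length was left there, so the RUNX2 promoters cannot be ordered. At RUNX3 the order depended on a weak control peak, since at the common cutoff the proximal promoter kept 0% of 1458 bp and the distal promoter still 11.1%. Pooled over the genes, 46.1% of the proximal and 13.1% of the distal length was kept, and 31.0% over all 6 promoters. The proximal figure rests on RUNX1, which gave 8110 of the 10898 bp kept there. For comparison, 20.4% was kept around all 22078 protein-coding starts of the same table, of which 15033 had control coverage in this window, and the median among these was 2.24%.

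**Figure D3:**
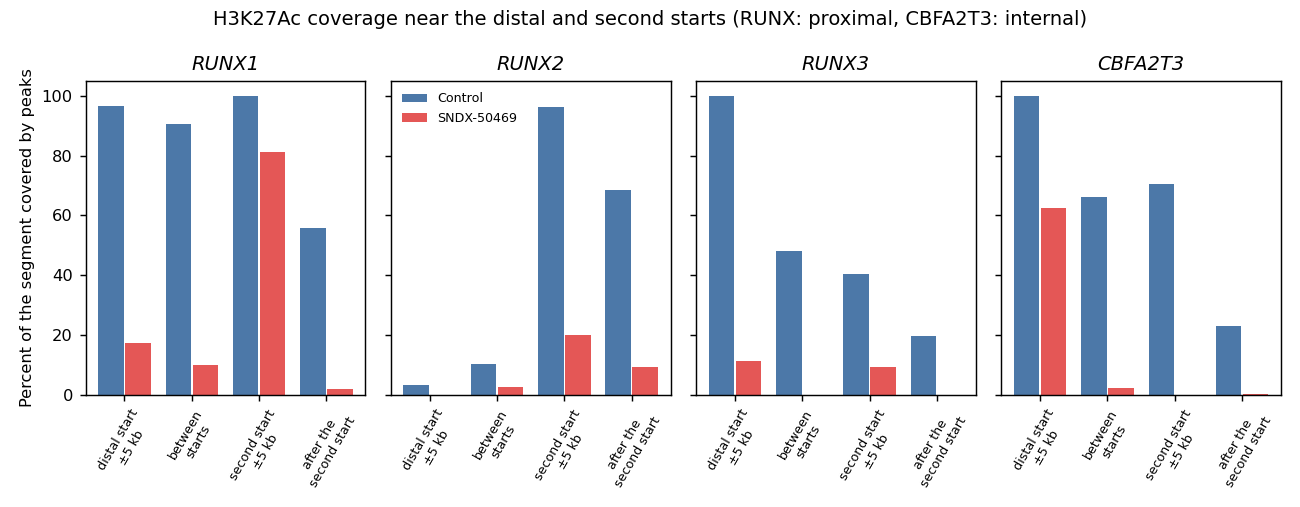
Percent of each segment covered by H3K27Ac peaks in control (blue) and SNDX-50469 (red) cells, for 5 kb on both sides of the distal start, the stretch between the starts, 5 kb on both sides of the second start and the stretch after it. The second start is the proximal one for RUNX genes and the internal one for CBFA2T3, and bars are single libraries. The RUNX1 proximal promoter (100% to 81.1%) and the CBFA2T3 distal promoter (100% to 62.6%) stayed the most covered.

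The promoter sequences are shown because coverage of the start separates them. The 300-base promoter (250 bases before the start and 50 from it on) was fully covered in both lists at the proximal promoters of RUNX1 and RUNX3. At the RUNX2 proximal promoter, 300 bases were covered in the control and 0 after treatment, at the RUNX3 distal promoter 300 and 93, and at the RUNX2 distal promoter 0 and 0. Of the 22199 promoters of protein-coding genes in the table, 49.3% were touched by a control peak and 21.9% by an SNDX-50469 peak, and 43.1% of those touched in the control were also touched after treatment. The 250 bases before each start follow, from RefSeq GRCh38.p14, 5′ to 3′ on the strand of the gene. Capitals mark the RUNX core motif TGTGGT, or its variant TGCGGT, on either strand (ACCACA or ACCGCA when read from the other strand). The table holds no entry used here for CBFB, RUNX1T1 or the distal RUNX1 promoter.
RUNX1 proximal promoter, chr21:34888700-34888949, minus strand: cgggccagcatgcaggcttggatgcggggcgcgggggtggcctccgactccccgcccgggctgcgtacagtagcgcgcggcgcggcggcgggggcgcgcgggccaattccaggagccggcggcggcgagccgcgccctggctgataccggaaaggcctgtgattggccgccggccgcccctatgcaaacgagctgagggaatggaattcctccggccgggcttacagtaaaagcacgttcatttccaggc
RUNX3 proximal promoter, chr1:24930277-24930526, minus strand: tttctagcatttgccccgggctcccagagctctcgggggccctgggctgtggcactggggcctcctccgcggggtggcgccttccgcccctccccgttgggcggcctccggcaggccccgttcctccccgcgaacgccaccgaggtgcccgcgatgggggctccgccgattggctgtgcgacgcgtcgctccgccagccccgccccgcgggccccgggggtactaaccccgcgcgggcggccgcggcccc
RUNX2 proximal promoter, chr6:45422025-45422274, plus strand: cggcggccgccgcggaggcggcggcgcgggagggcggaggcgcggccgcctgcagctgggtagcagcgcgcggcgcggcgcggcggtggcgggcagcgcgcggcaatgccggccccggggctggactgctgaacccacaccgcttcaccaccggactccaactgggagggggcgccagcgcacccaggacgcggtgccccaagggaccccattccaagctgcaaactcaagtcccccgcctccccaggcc
RUNX3 distal promoter, chr1:24965011-24965260, minus strand: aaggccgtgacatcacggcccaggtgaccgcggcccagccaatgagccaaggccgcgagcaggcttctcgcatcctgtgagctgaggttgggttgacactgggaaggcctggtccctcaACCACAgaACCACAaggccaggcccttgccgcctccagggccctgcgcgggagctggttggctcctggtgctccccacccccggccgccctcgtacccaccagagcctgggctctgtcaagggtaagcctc
RUNX2 distal promoter, chr6:45328080-45328329, plus strand: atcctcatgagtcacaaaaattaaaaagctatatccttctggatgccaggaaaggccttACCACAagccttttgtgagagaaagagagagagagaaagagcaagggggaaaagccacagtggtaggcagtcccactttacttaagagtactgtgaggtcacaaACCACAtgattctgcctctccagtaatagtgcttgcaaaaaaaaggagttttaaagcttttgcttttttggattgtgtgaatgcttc

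The proximal promoters were rich in G and C (71.2% at RUNX1, 78% at RUNX2 and 78.4% at RUNX3), and none of the 3 held either motif. The motifs lay in the distal promoters of RUNX2 and RUNX3, and the distal RUNX1 promoter was not searched. The RUNX2 distal promoter, of 41.6% GC, held 5 matches in its 300 bases (4 of TGTGGT and 1 of TGCGGT), of which 2 lay before the start and are in capitals above. The RUNX3 distal promoter, of 67.6% GC, held 2 matches of TGTGGT. In all 34943 promoters of the table, 19.6% held at least 1 match, 2.33% at least 2 and 0.255% at least 3. Both RUNX3 matches fell in a run of 18 bases that the RUNX2 distal promoter also held.
RUNX2 and RUNX3 shared run: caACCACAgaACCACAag
This run was found after the sequences were seen, and among the 34943 promoters only these 2 contained it. It began 14 bases after the start at RUNX2 and at position -133 from the start at RUNX3, with the start counted as 0. The promoter with the most matches, RUNX2 distal, was covered in neither list. At the RUNX3 distal promoter the control peak covered all 300 bases, and the treated peak covered 93 bases further upstream, reaching neither the start nor the shared run. These matches describe the sequence, and binding was not measured.

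CBFB (chr16:67029149-67101058, plus strand), the common partner of the RUNX proteins, had a compact pattern. In the control it had 17 peaks over 7660 bp, or 9.35% of the window, and after treatment 1 peak of 1699 bp, a 4.51-fold lower length. The kept share was 22.2%, against 9.61% for the rest of chromosome 16. That treated peak (chr16:67028669-67030367, fold 5.07, rank 1582) lay over the start, inside the strongest control peak of all 7 genes by fold (chr16:67028368-67030439, 2072 bp, fold 9.10, rank 479). The other 16 control peaks were not touched, so that 1 of 17 was kept by number (5.88%, Wilson interval 1.05 to 27%). Around the start 63.3% was kept, from 2686 bp, and in the rest of the gene none of 4974 bp. By treated length CBFB ranked 3879, higher than by control length (6443).

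CBFA2T3 (chr16:88874858-88977207, minus strand), the ETO-family gene expressed in blood progenitors, was the longest covered of its family. It had 40 control peaks over 49467 bp and 7 treated peaks over 7023 bp, a 7.04-fold lower length with 13.8% kept. Of its control peaks 3 were touched (7.50%, Wilson interval 2.58 to 19.9%), and 6 of the 7 treated peaks overlapped a control peak. Of all treated peaks, 43.0% overlapped none. The strongest control peak spanned 17258 bp over the distal start (chr16:88969524-88986781, fold 8.57, rank 698), and 8599 bp of it were kept. In it stood the top treated peak of all 7 genes (chr16:88976231-88979938, 3708 bp, fold 6.48, rank 446), the only treated peak of these genes with a −log10 q of at least 5. Of all 54061 treated peaks, only 938 met that q. A second peak of 3314 bp lay further upstream (chr16:88980685-88983998, fold 4.59). The distal promoter kept 62.6% of 10000 bp, whereas the internal promoter went from 7060 bp to 0 bp. The gene body alone fell 15.8-fold, from 43808 bp to 2769 bp, and kept 5.90%. Much of the kept length lay in the upstream flank.

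CBFA2T2 (chr20:33490096-33650030, plus strand) went from 13 control peaks over 3809 bp to 0 treated peaks, and no fold is given against an empty list. Its control peaks were weak for the most part. The best one (chr20:33489198-33489787, 590 bp, fold 5.16, rank 7808) lay before the start, and the longest (chr20:33490124-33490993, 870 bp, fold 3.67, rank 28614) just after it. With 0 of 13 control peaks touched, the Wilson interval reached up to 22.8%. With 3809 bp in the control the gene lay below the median of all genes with a control peak (5834.5 bp).

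RUNX1T1 (chr8:91954967-92103385, minus strand), whose fusion to RUNX1 defines one form of AML, was the exception in direction. It had 4 control peaks over 627 bp and 16 treated peaks over 5160 bp, an 8.23-fold higher length, and 15 of the 16 treated peaks overlapped no control peak. Of all treated peaks on chromosome 8, 57.5% overlapped none. By treated length it ranked 1102 of 15634 genes, against 13983 by control length. All of these peaks were short and weak. The control peaks were 82 to 245 bp long with folds of 2.66 to 2.83, and none of them met the common cutoff. The treated peaks were 107 to 1131 bp long with folds of 3.46 to 4.21, the best at rank 6655 of its list, and they were spread along the gene. Near the start, 0 bp were covered in the control and 250 bp after treatment.

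The chromosome moved with this result. Chromosome 8 was covered over 24.1 Mb in the control and 9.55 Mb after treatment, so that its treated length without RUNX1T1 was 39.6% of the control length. The same share without the gene was 6.44% for RUNX1 on chromosome 21, 8.89% for RUNX3, 10.3% for CBFB, 10.6% for CBFA2T2 and 14.2% for RUNX2. Of the 624 chromosome 8 genes with a control peak, 15.4% had a higher length after treatment, against 1.28% of the 15010 on other chromosomes, and 13.8% kept none. The part of the chromosome in the rise at RUNX1T1 was not tested.

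**Figure D4:**
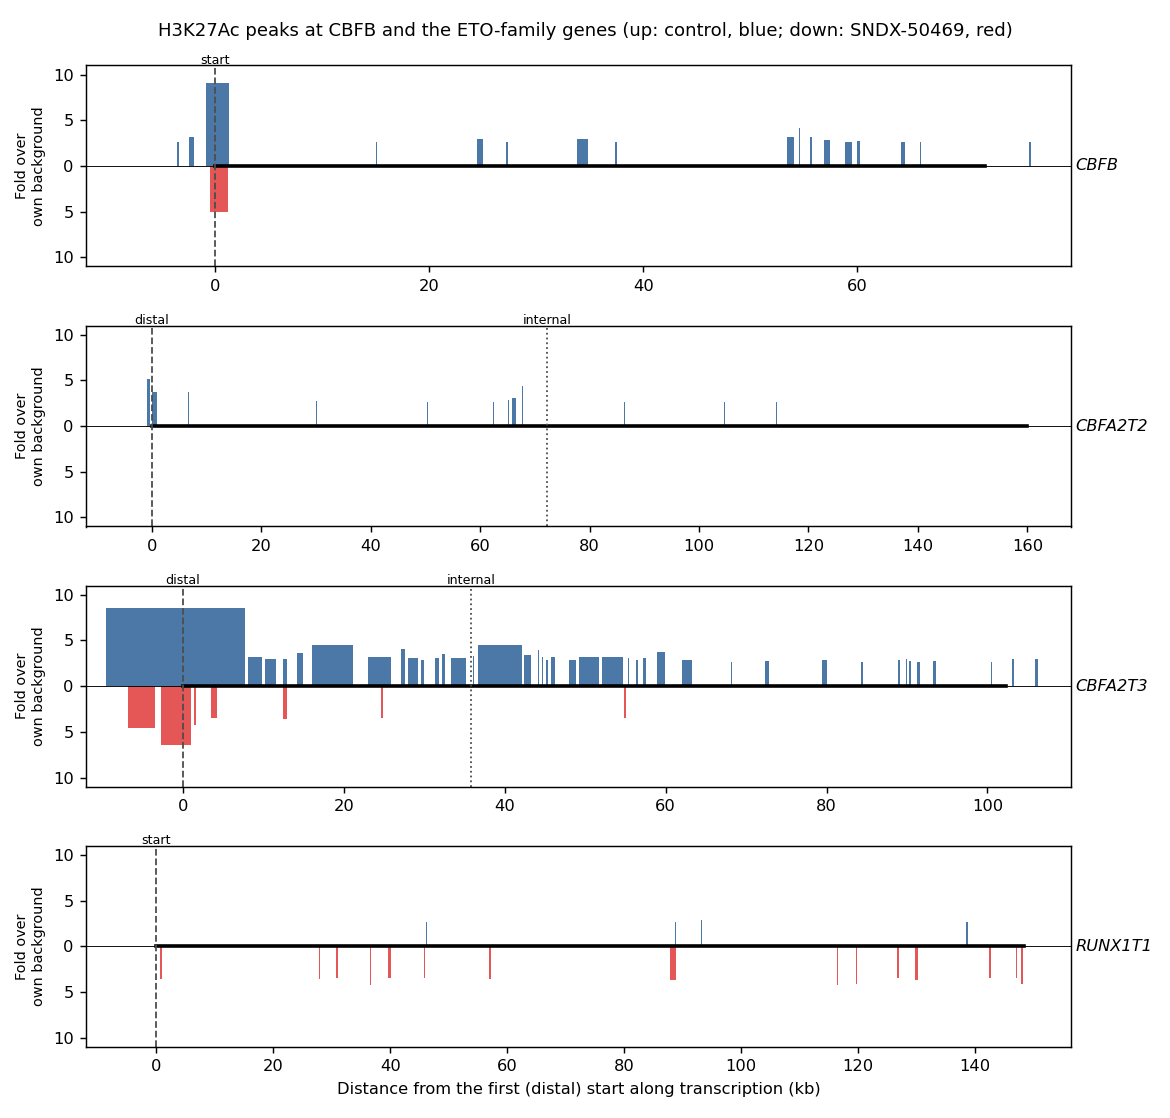
H3K27Ac peaks over CBFB, CBFA2T2, CBFA2T3 and RUNX1T1 by distance from the first start along transcription (kb), with control peaks upward (blue) and SNDX-50469 peaks downward (red). Height is the fold over the background of the own library, not scaled between libraries, the black line is the gene, and peaks under 0.15 kb are drawn at that width. CBFB kept 1 peak at its start, CBFA2T2 none, CBFA2T3 mainly the stretch around its distal start, and RUNX1T1 showed 16 thin treated peaks.

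Control peaks of the 7 genes were touched at different rates by strength and width. Of the 58 control peaks that met the common cutoff, 16 were touched by a treated peak (27.6%, Wilson interval 17.8 to 40.2%), against 5 of the 187 below it (2.67%, 1.15 to 6.11%). Over the whole control list the same shares were 28.4% of 45451 peaks and 3.66% of 200424 peaks, so that the shares of the 7 genes were close to those of the whole list. By width, 11 of 17 control peaks of at least 5 kb were touched (64.7%, 41.3 to 82.7%), beside 66.5% in the whole list. Of the narrower ones, 10 of 228 were (4.39%, 2.40 to 7.88%), beside 6.36%. Touching needed 1 bp only, and none of the control peaks of RUNX1 or RUNX2 was covered over at least 50% of its length. That share was not counted over the whole control list, so it has no background. At RUNX1 none of the 52 control peaks below the cutoff was touched, and 7 of the 23 above it were.

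With control peaks limited to the common cutoff, the kept share was 15.4% at RUNX1, 20.5% at RUNX2, 5.08% at RUNX3, 24.1% at CBFA2T3 and 0% at CBFA2T2. CBFB moved the most, to 78.8% of 2155 bp, since 2 of its 17 control peaks were left. RUNX1T1 had no control peak left. At this cutoff 42.4% of 12555 genes fell at least 10-fold, as did 2 of the 6 genes with a control peak left. With a −log10 q of at least 5 in both lists, 86.8% of 7382 genes and 5 of 6 of these did.

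The surroundings were read in windows of 100 kb on both sides. RUNX1 went from 131 peaks over 234351 bp to 19 peaks over 27518 bp, with 11.5% kept, and its flanks beyond 5 kb held only 22047 bp in the control and 997 bp after treatment. RUNX2 went from 117649 bp to 16211 bp, with 12.7% kept and none of the 10757 bp in its flanks. For both genes most of the coverage thus lay in the gene and its nearest 5 kb. RUNX3 went from 101517 bp to 7972 bp, with 7.73% kept, and 69447 bp of the control length lay in its flanks. CBFA2T3 had the longest flanks, with 105941 bp in the control and 23484 bp after treatment, and kept 22.2% there and 19.5% in all. CBFA2T2 had 36760 bp in the control and 3925 bp after treatment, all of it outside the gene and its 5 kb. CBFB went from 21875 bp to 1799 bp, with 7.77% kept. RUNX1T1 rose from 9 peaks over 1127 bp to 34 peaks over 12626 bp, and 33 of these overlapped no control peak, beside the 57.5% of its chromosome. In these windows 53.1% of 18602 genes fell at least 10-fold, and of the 7 genes RUNX3 (12.7-fold) and CBFB (12.2-fold) did. At the common cutoff neither did (8.39-fold and 4.97-fold), nor any other of the 7, beside 31.4% of 17153 genes. The windows reached 14 other protein-coding genes at CBFB, 8 at CBFA2T2 and 6 at CBFA2T3, so that their flanks are not theirs alone.

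Nearby peaks were also joined into stitched regions at the default distance of ROSE, a tool for finding super enhancers, and the regions were ranked within each list by the sum of fold times length. RUNX1 lay in the control region of rank 20 of 24668, which ran for 930 kb, and in the treated region of rank 160 of 18541, which ran for 30.4 kb. CBFA2T3 went from rank 81 (496 kb) to rank 370 (38.8 kb), RUNX2 from rank 274 (306 kb) to rank 473 (24 kb) and RUNX3 from rank 381 (246 kb) to rank 5051 (1.11 kb). In the top 1% of regions were 2 of the 7 genes in the control, RUNX1 and CBFA2T3, and 1 after treatment, RUNX1. This 1% is a share of regions, and a long region can hold many genes. The share of all genes that lay in top regions was not counted, so these counts have no background. The best regions of CBFB did not overlap each other (rank 4616 in the control and 3154 after treatment), and those of RUNX1T1 lay at rank 18608 and 1578. The lists hold different numbers of regions, so that ranks are read within a list. CBFA2T2 was at rank 9653 in the control and in no treated region. At this stitching distance, the control regions of RUNX1, RUNX2, RUNX3 and CBFA2T3 joined peaks far outside the genes. A distance of 3 kb gave RUNX1 a control region of 268 kb (rank 40 of 62245) and a treated one of 11.4 kb (rank 282 of 32489).

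**Figure D5:**
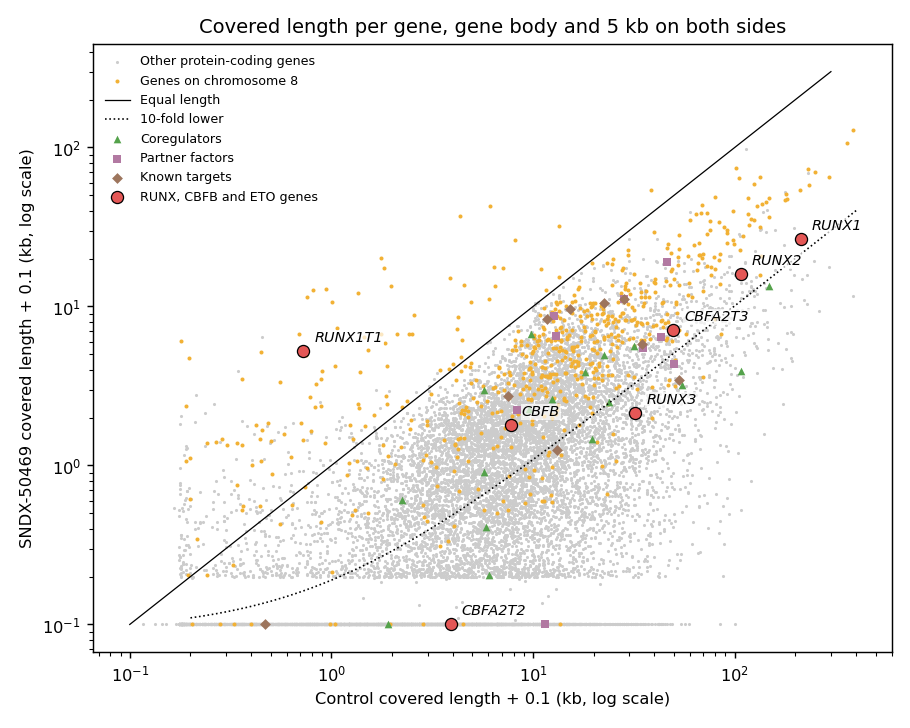
Covered length after SNDX-50469 against covered length in the control for each protein-coding gene that had a control peak (gene body and 5 kb on both sides, 0.1 kb added to both, log scales), with the 7 genes and their pathway lists marked. The solid line is equal length and the dotted curve a 10-fold lower length. RUNX1T1 lies above the line of equal length with a set of chromosome 8 genes, and RUNX1 at the far end of control length.

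Genes that work with core-binding factor were taken from 3 lists, whose counts stand beside the 98.1% of all genes that were lower, the 59.0% that fell at least 10-fold and the 44.8% that kept nothing. Among 17 coregulators that bind RUNX or ETO proteins, all were lower after treatment, 7 at least 10-fold, and 2 kept nothing, with a median kept share of 10.3%. The longest in the control was TCF12, an E protein bound by ETO (148 kb to 13.3 kb, 8.62% kept). The highest kept shares were those of the corepressor scaffold SIN3A (59.4%) and the deacetylase HDAC2 (40.4%). Of 10 transcription factors that bind beside RUNX1 in blood cells, 9 had control peaks (TAL1 had none) and all 9 were lower, 2 at least 10-fold, with a median of 24%. FLI1, an ETS factor, went from 50.1 kb to 4.22 kb (8.16% kept) and MYB, a progenitor factor, from 46.0 kb to 18.9 kb (41.2%). CEBPA, the granulocyte regulator, kept 68.1% and LYL1, a relative of TAL1, 49.8%.

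Of 10 known RUNX targets in blood cells, 9 had control peaks (IL3 had none) and all 9 were lower, 3 at least 10-fold, with a median of 35.4%. The receptor gene CSF1R went from 52.6 kb to 3.35 kb (6.36% kept) and the integrin gene ITGAL from 34.6 kb to 5.72 kb (16.5%). The granule genes ELANE (70.9%) and MPO (63.4%) kept the most. SPI1 is in both of the last lists. The medians of all 3 lists stand above the 2.37% of all genes, but not so for the coregulators by other measures. Summed over their lengths they kept 9.58%, against 11.6% for all genes, and with 100 kb flanks their median was 6.55%, against 6.76%. These lists are short and were not tested.

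The genes most like each of the 7 in both covered lengths (smallest sum of absolute log2 differences, over these 2 values) were named by the same rule for each. For RUNX1 they were TRERF1 (distance 0.34) and ZMIZ1 (0.40), and for RUNX2 SLX4IP and MAP3K5 (0.11 each). For RUNX3 they were CHRNB3 (0.03) and IRF8 (0.04), for CBFB SART1 and NAA60, for CBFA2T3 IKBKB and INPP4A, and for CBFA2T2 GLTP and RIPK3. For RUNX1T1 they were CALB1 (0.13) and STMN2 (0.42), both on chromosome 8. RUNX1 had the most distant neighbours but for STMN2, since few genes were covered as long.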

How the data were processed

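H3K27Ac ChIPmentation was read in 1 control and 1 SNDX-50469 library. The authors called broad peaks in each library on its own, without pooling, and deposited the positions. Each peak carries a deposited ratio and, from the authors, a −log10 p and a −log10 q. The ratio is read as the fold over the background set for that library, called its own background here. Whether that background drew on the input is not known. A score deposited with each peak was not used. The submitters' processing notes name Trim Galore 0.6.5, Bowtie2 2.3.4.2, Picard 2.9.0, MACS2 2.1.2 and the build GRCh38, without roles, whereas the supplementary methods name TopHat2, hg38, diffReps and ROSE, so the aligner is unsettled. Calling options and use of input are not given in the sources used here. Folds are relative to separate backgrounds and were not compared across libraries. The p and q of both lists met only in the shared cutoffs, with the same limit.

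Covered and kept length were computed from the intervals with Python 3.11.15, numpy 2.4.6, pandas 2.3.3 and scipy 1.17.1, and drawn with matplotlib 3.10.9, over RefSeq genes of GRCh38.p14. An overlap of 1 bp counted as touched. The code was checked on simulated intervals. Wilson intervals (95%) cover counting error only. Samples were grouped by their titles. The 7 genes and all lists were chosen with earlier results of these data known. Named beside the 7 genes were, per list, the 2 longest in the control and the 2 with the highest kept share, the 2 genes most like each, by log2 of covered length plus 100 bp, and neighbours with a peak over their 5′ end. Some genes of these lists are not reported here by name. Alternatives were a 100 kb flank, the gene body alone, a −log10 q of at least 5, the common cutoff, shares of peaks, 1 kb promoters, and other stitching and ranking.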

Additional observations from a re-analysis of the deposited data

How the results depend on the processing

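No paired analysis was possible because only 1 library stood on each side. The kept share summed over the 7 genes was 12.6%, beside 11.6% for all genes. At the common cutoff it was 17.0% (18.2% for all genes). It was 2.33% with a −log10 q of at least 5 in both lists (7.41% for all genes). As the share of control peaks touched it was 8.57%, and as the share with at least 50% of the peak covered 1.63%. Of the whole control list, 28.4% were touched above the common cutoff and 3.66% below it. Its share with at least 50% covered was not counted. With that q, 5 of the 6 genes with a control peak left, in place of 2 of 7, fell at least 10-fold, beside 86.8% of all genes. No treated peak of RUNX1, RUNX2, RUNX3 or CBFB met that q, and only 938 of all 54061 treated peaks did. Over the gene body alone, 3 of the 7 genes fell at least 10-fold (RUNX3, CBFA2T2 and CBFA2T3), beside 9216 of 14790 genes. The kept share of the RUNX promoters (31.0%) was 59.2% within 1 kb of a start and 0% with that q. Shares over all starts were not computed at 1 kb or with that q, so these values have no background. With stitching at 3 kb, 4 genes in the control, in place of 2, and 2 after treatment, in place of 1, lay in the top 1% of regions, and ranking by length left 0 after treatment. The share of all genes in such regions was not counted. The median kept share of the coregulators (10.3%) was 6.55% with 100 kb flanks (6.76% for all genes). At the common cutoff it was 26.0% (9.80% for all genes). That of the partner factors (24%) was 13.0% with these flanks and 39.2% at the cutoff. For the known targets (35.4%) it was 15.9% with these flanks. Of 40 kept shares of single genes under alternatives, 27 lay within the 95% Wilson interval of the reported share, taken over the control peaks of the gene, and 13 outside it. That interval counts peaks while the share counts bases, and it is wide where control peaks are few. Lying within it is thus a loose check. RUNX1T1 gave no value at the q of 5 or at the common cutoff, where no control peak was left.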
